A study of Rattus norvegicus with 18 samples.

Results

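The genes of the methionine cycle, of transsulfuration and of phosphatidylcholine synthesis from phosphatidylethanolamine were examined in the liver of control, NASH and NASH-CH rats. Members were the rows whose gene symbol was Mat1a, Mat2a, Gnmt, Bhmt, Cbs, Cth, Ahcy, Pemt or Nnmt. A row carried 8 of these 9 symbols, out of 32623 genes in each table. Cth, the cystathionine gamma-lyase of the last step to cysteine, was not analysed here. Liver RNA was sequenced as 1 library per rat in 6 control, 6 NASH and 6 NASH-CH rats, all male Wistar animals. The NASH protocol took 10 weeks. Carbon tetrachloride (CCl4), a hepatotoxin activated by liver cytochromes, was inhaled for the first 6, with phenobarbital given by mouth, and the last 4 were spent on a diet rich in fat and cholesterol (HFCD). NASH-CH rats, the model with cirrhosis, inhaled CCl4 with phenobarbital over 24 weeks and ate the HFCD during the last 16. Control rats had standard chow and normal water for 12 weeks, so neither model has controls of its own duration, and agent, diet and time cannot be told apart. The series' design text gives CCl4 with the diet for 10 and for 24 weeks.

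In the methionine cycle, methionine is joined to the adenosine of ATP to give S-adenosylmethionine (SAM), the methyl donor of most methylation reactions. Methyl transfer leaves S-adenosylhomocysteine, which is split to homocysteine, and homocysteine is either methylated back to methionine or drawn into transsulfuration towards cysteine and glutathione. The liver holds much of the body's capacity for these reactions, and its methylation of phosphatidylethanolamine supplies part of the phosphatidylcholine that is packed into very low density lipoprotein. Diets short of methionine and choline, and mice without Mat1a or Gnmt, are known to develop fatty liver.

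Values are CPM of the RSEM expected counts, with each library's total multiplied by its factor from the trimmed mean of M values (TMM), and fold changes are on the log2 scale of the limma-voom fit of 18 rats. A gene was called at a Benjamini-Hochberg adjusted p under 0.05 over the 12904 genes that passed the filter on low counts, and all 8 members with a row passed it. Total expected counts ran from 19498534 to 29491947 in control and NASH rats and from 44680344 to 60117822 in NASH-CH rats, so the depth of that group cannot be told apart from its condition. The 7SK and signal recognition particle RNAs took a median of 17.2% of counts over control rats, 14.8% over NASH rats and 11.4% over NASH-CH rats, and the members called were the same in number without these genes. RSEM divides reads that match several genes, and expected counts were not whole numbers in 18 of 18 rats for Gnmt and Bhmt and in 13 for Mat2a. Values of these 3 genes therefore rest partly on shared reads. Counts of Bhmt2, the paralog of Bhmt, were also not whole in 18 of 18 rats. The hepatocyte genes Alb, Ttr, Apoa1, Apob, Tf, Fgb and Serpina1 were all detected, and they summed to between 88620 and 191100 CPM in every rat.

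The threshold split the members into called and uncalled genes, and these 2 sets were not tested against each other. Gnmt, Bhmt and Pemt were lower in NASH-CH than in control rats, and Pemt was also lower in NASH. Mat1a, Mat2a, Ahcy, Cbs and Nnmt did not pass the threshold in any comparison. Promoters are shown of the 3 genes that fell in NASH-CH. That of Mat1a, a gene of the same cycle that was not called, is shown for comparison. RefSeq (GRCr8, another assembly than the Rnor_6.0 of the counts) gave a window from 250 bases before to 50 after a gene start for 7 of the 8 members with counts. The windows printed are Gnmt, chr9:21752032-21752331 on the plus strand, Bhmt, chr2:26614380-26614679 on the minus strand, Pemt, chr10:45341898-45342197 on the minus strand, and Mat1a, chr16:17016918-17017217 on the plus strand. Capitals mark the CCAAT box (CCAAT) and the GC box (GGGCGG) on either strand.
Gnmt: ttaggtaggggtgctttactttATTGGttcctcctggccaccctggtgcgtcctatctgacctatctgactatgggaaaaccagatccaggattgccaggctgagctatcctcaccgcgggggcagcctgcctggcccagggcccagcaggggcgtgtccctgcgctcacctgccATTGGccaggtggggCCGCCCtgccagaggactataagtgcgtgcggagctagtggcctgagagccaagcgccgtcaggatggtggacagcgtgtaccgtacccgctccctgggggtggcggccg
Bhmt: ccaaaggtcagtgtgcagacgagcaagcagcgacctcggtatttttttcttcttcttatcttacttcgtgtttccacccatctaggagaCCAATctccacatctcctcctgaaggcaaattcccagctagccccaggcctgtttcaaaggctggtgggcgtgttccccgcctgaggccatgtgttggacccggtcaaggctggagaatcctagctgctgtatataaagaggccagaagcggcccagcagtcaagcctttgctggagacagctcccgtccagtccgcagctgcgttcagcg
Pemt: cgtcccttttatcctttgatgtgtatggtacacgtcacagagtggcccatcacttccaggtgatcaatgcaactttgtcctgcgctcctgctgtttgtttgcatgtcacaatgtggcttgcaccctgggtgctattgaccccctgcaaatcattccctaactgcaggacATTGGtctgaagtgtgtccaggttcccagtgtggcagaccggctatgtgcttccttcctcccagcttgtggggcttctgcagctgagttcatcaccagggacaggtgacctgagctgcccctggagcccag
Mat1a: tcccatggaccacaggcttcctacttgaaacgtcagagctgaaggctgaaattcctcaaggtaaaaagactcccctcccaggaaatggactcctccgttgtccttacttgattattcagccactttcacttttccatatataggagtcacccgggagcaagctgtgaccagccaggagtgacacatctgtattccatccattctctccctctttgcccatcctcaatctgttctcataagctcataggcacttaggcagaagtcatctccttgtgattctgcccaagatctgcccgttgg

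The Gnmt window held 2 CCAAT boxes and 1 GC box, and those of Bhmt and Pemt held 1 CCAAT box each and 0 GC boxes. The Mat1a window held neither sequence, the only one of the 7 member windows to do so. Over all 33469 RefSeq windows of this length, 37.5% held a CCAAT box and 33.1% a GC box. A CCAAT box was also present in the windows of Mat2a (1) and Cbs (2), whose transcripts were not called, so 5 of 7 members with a window held one. A GC box was present in those of Mat2a (1), Cbs (3) and Ahcy (2), also not called, so 4 of 7 held one. In these 7 windows no CCAAT box overlapped a GC box. A match describes the letters only.

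**Figure D1:**
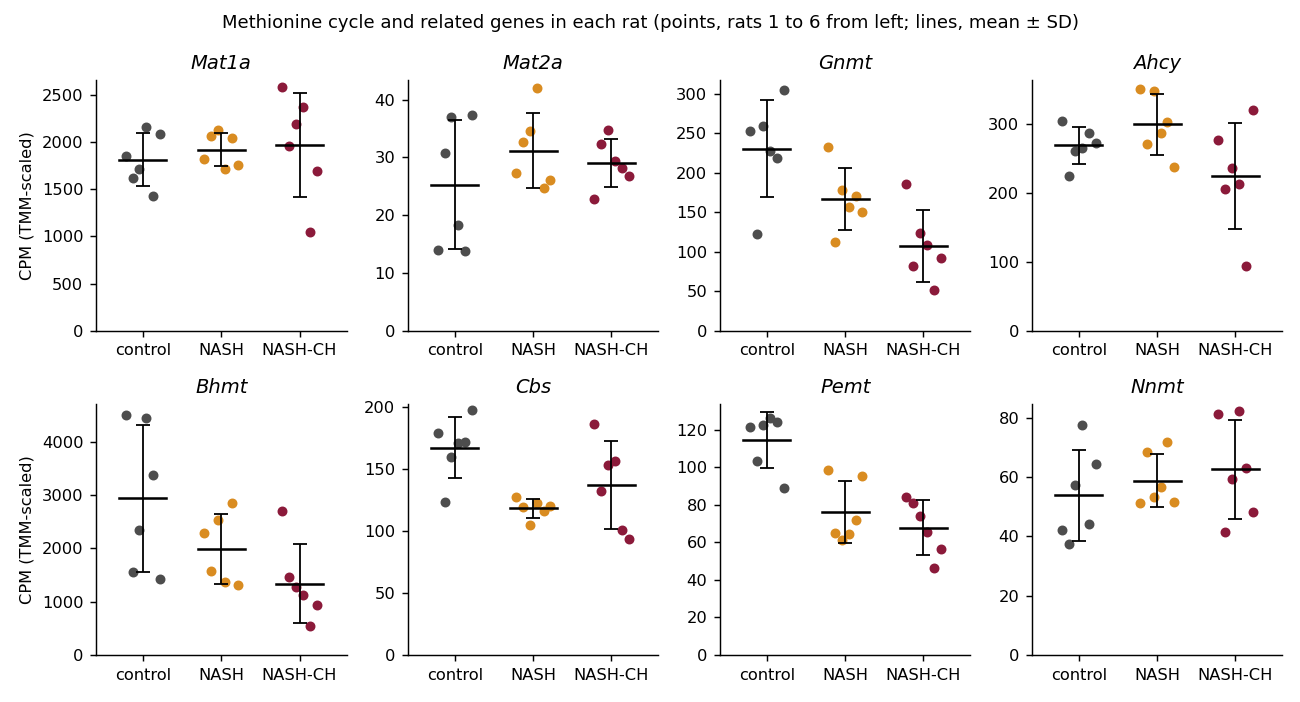
CPM after TMM scaling (vertical axes, from 0) of the 8 members in each rat of the control, NASH and NASH-CH groups. Points are rats 1 to 6 from left to right, long lines group means and whiskers SD; for Pemt all 6 NASH-CH rats lie below the lowest control rat (88.7 CPM), while Mat1a overlaps in all groups.

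SAM is made by the 2 methionine adenosyltransferases. Mat1a encodes the catalytic subunit of adult hepatocytes, and Mat2a that of most other tissues and of growing liver cells. Mat1a ran from 1431 to 2169 CPM in control rats, with a median of 1788, from 1715 to 2127 (median 1935) in NASH and from 1044 to 2589 (median 2079) in NASH-CH rats. The groups overlapped, with 3 NASH-CH rats above every control rat and 1, NASH-CH rat 5, below. Relative to controls, the log2 fold change in NASH was 0.10 with a 95% interval of -0.26 to 0.45 (adjusted p = 0.788). For NASH-CH rats it was 0.09 with an interval of -0.28 to 0.46 (adjusted p = 0.756), so an increase of up to 0.46 or a change down to -0.28 lies within it. Between NASH-CH and NASH rats the value was -0.0047 (adjusted p = 0.995), and its sign turned in 5 of 12 alternative settings.

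Mat2a was counted at 13.8 to 37.4 CPM (median 24.6) in control, 24.7 to 42.1 (median 29.9) in NASH and 22.8 to 34.7 (median 28.8) in NASH-CH rats. Control rats parted into 3 at or below 18.3 CPM (rats 1, 4 and 5) and 3 at or above 30.9 CPM, and both models lay between the extremes of the controls but for 1 NASH rat. Mat2a had a log2 fold change of 0.40 for NASH against control, with SE 0.23 and adjusted p = 0.340. For NASH-CH the value was 0.31, with SE 0.24 and adjusted p = 0.398. All 6 NASH rats and 5 of 6 NASH-CH rats exceeded the control median, without a call in either model. The ratio of Mat2a to Mat1a counts, which does not depend on how libraries are scaled, was 7.55 to 21.5 Mat2a counts per 1000 Mat1a counts in control rats (median 13.8). It was 12.03 to 24.5 (median 15.4) in NASH and 8.82 to 27.0 (median 15.8) in NASH-CH rats, with overlap of all groups. NASH-CH rat 5, the rat with the lowest Mat1a, had the highest ratio.

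Gnmt encodes glycine N-methyltransferase, an abundant liver enzyme that methylates glycine to sarcosine and uses up SAM when it is in excess. It stood at 122 to 305 CPM (median 240.0) in control rats, 113 to 232 (median 164) in NASH and 51.0 to 186 (median 100.4) in NASH-CH rats. Every NASH-CH rat lay below the control median and 4 of 6 below every control rat. In NASH-CH, Gnmt fell to 45.0% of the control level, or by -1.15 as log2 fold change (limma-voom, 95% interval -1.70 to -0.61, SE 0.26, adjusted p = 0.00569). For NASH rats the value was -0.45, with SE 0.26 and adjusted p = 0.317, with all 6 rats below the control median and 1 below every control rat. Between NASH-CH and NASH rats it was -0.70 (SE 0.26, unadjusted p = 0.0135, adjusted p = 0.147), and without NASH-CH rat 1, the highest of its group, -0.88 (adjusted p = 0.0431).

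Among the 8 members, 3 (37.5%) were called in NASH-CH against control, all lower, where 17.0% of all genes tested were called, 8.38% higher and 8.60% lower. The other two were Bhmt and Pemt. With 8 genes that share describes the list only. The members' median log2 fold change was -0.33 beside 0.013 over all genes.

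Ahcy, the adenosylhomocysteinase that removes the product inhibitor of methyltransferases, ran from 224 to 304 CPM (median 270) in control, from 238 to 352 (median 296) in NASH and from 93.6 to 321 (median 225) in NASH-CH rats. NASH-CH rat 5 was at 93.6 CPM, far from the next lowest of its group at 205.5. Against control, Ahcy had a log2 fold change of 0.15 for NASH rats (SE 0.20, adjusted p = 0.715). For NASH-CH rats it was -0.34 (SE 0.20, adjusted p = 0.258), and -0.12 without NASH-CH rat 5 (adjusted p = 0.541). NASH-CH against NASH gave -0.49 (SE 0.21, unadjusted p = 0.0284, adjusted p = 0.211), with 4 NASH-CH rats below every NASH rat, and the value ran from -0.61 to -0.28 over the leave-one-out fits.

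Bhmt, betaine-homocysteine methyltransferase, returns homocysteine to methionine with the methyl group of betaine, the oxidation product of choline. By coefficient of variation it was the member with the widest spread in each group. Control rats ran from 1422 to 4514 CPM (median 2861), NASH rats from 1320 to 2855 (median 1936) and NASH-CH rats from 542 to 2705 (median 1196). The coefficient of variation was 46.8% over control rats, 32.7% over NASH rats and 55.2% over NASH-CH rats. Control rats 2 and 6 lay at 1559 and 1422 CPM, within the NASH range, and NASH-CH rat 1 at 2705 CPM was near the control median. In NASH-CH, Bhmt fell to 44.8% of the control level, or by -1.16 as log2 fold change (limma-voom, 95% interval -1.91 to -0.41, SE 0.36, adjusted p = 0.0330). The call was lost in 6 of 18 fits that each left out 1 rat (control rats 1, 4 and 5 and NASH-CH rats 4, 5 and 6), where the adjusted p reached 0.0809, and the fold change stayed between -1.40 and -0.94. It was also lost in 2 of 12 other settings, at an adjusted p under 0.01 and with only the 2 groups fitted. For NASH rats the value was -0.49, with SE 0.35 and adjusted p = 0.443, and with 6 of 6 rats below the control median.

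Cbs, the cystathionine beta-synthase that commits homocysteine to transsulfuration, ran from 124 to 197 CPM (median 171) in control rats and from 105 to 128 (median 120.0) in NASH rats. NASH-CH rats spanned 93.8 to 186 CPM (median 143). In NASH, 5 of 6 rats lay below every control rat, since control rat 2 at 124 CPM was below NASH rat 1 alone. The log2 fold change of -0.48 in NASH (SE 0.14, unadjusted p = 0.00272, adjusted p = 0.0629) did not pass, and it passed without control rat 2, NASH-CH rat 5 or NASH-CH rat 6 (adjusted p down to 0.0317), and in 3 of 12 other settings. For NASH-CH rats it was -0.31 with SE 0.15 and adjusted p = 0.163. The NASH rats were close to one another, with a coefficient of variation of 6.47%, while NASH-CH rats parted into 4 above and 2 below the NASH range.

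**Figure D2:**
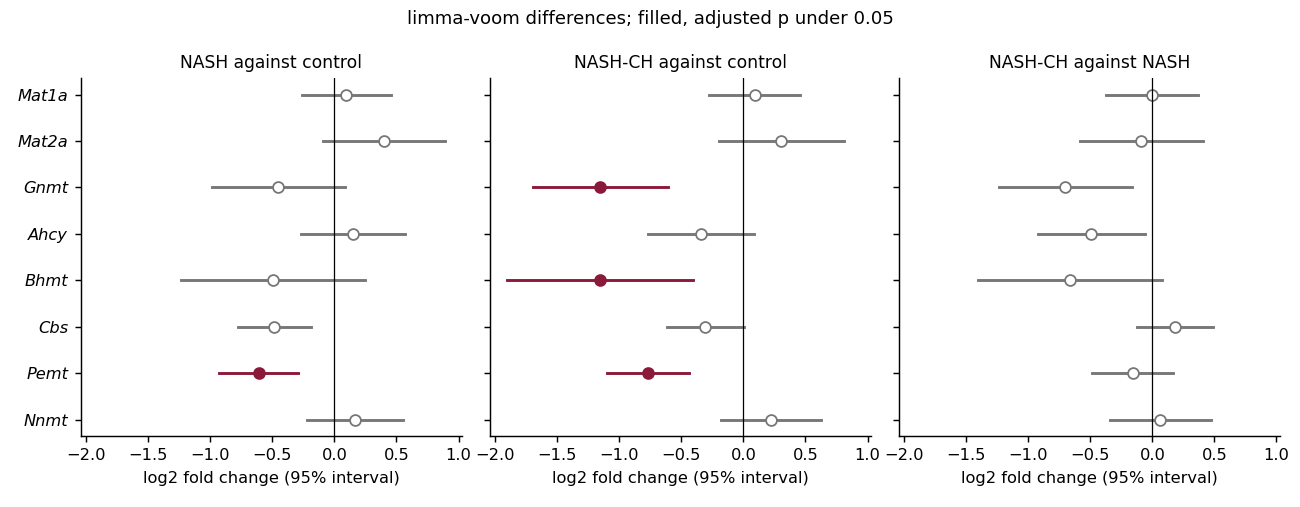
Log2 fold changes (horizontal axes) of the 8 members in the 3 comparisons, from limma-voom. Points are estimates and lines 95% intervals, filled and red where the adjusted p was under 0.05: Pemt in NASH, and Gnmt, Bhmt and Pemt in NASH-CH, relative to controls.

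Pemt encodes phosphatidylethanolamine N-methyltransferase, which makes phosphatidylcholine by methylating phosphatidylethanolamine and is, with Gnmt, a main consumer of SAM in liver. It ran from 88.7 to 126 CPM (median 122) in control rats, from 61.3 to 98.4 (median 68.5) in NASH and from 46.1 to 83.9 (median 69.6) in NASH-CH rats. All 6 NASH-CH rats lay below every control rat, as they did in 3.46% of all genes tested. In NASH, rats 1 and 6, at 98.4 and 95.3 CPM, lay above control rat 6 and the other 4 below every control rat. In NASH, Pemt fell to 65.5% of the control level, or by -0.61 as log2 fold change (limma-voom, 95% interval -0.93 to -0.29, SE 0.15, adjusted p = 0.0358). In NASH-CH it fell to 58.7%, or by -0.77 (95% interval -1.10 to -0.44, SE 0.16, adjusted p = 0.00311). The models differed by -0.16 (SE 0.16, 95% interval -0.49 to 0.17, adjusted p = 0.653).

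Pemt was the 1 member of 8 (12.5%) called in NASH, where 3.12% of all genes were called, 1.58% higher and 1.54% lower. Its call in NASH was near the threshold. It was lost in 8 of 18 leave-one-out fits (without control rat 1, 3, 4 or 5 or NASH rat 2, 3, 4 or 5), where the adjusted p reached 0.102, and in 4 of 12 other settings, and the fold change over the leave-one-out fits stayed between -0.69 and -0.55. With library size only in place of TMM, the log2 fold changes of all genes had a median that moved from 0.0072 to 0.23 for NASH, and from 0.013 to 0.27 for NASH-CH rats. Under it Pemt had a log2 fold change of -0.38 in NASH (adjusted p = 0.0609). Relative to that median this is -0.61, against -0.62 with TMM. In NASH-CH, Pemt and Gnmt were called in 18 of 18 leave-one-out fits and in 12 of 12 other settings.

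Nnmt, nicotinamide N-methyltransferase, spends SAM on nicotinamide and is also expressed in adipose tissue and fibroblasts. It ran from 37.4 to 77.6 CPM (median 50.9) in control, from 51.2 to 71.8 (median 54.9) in NASH and from 41.6 to 82.4 (median 61.2) in NASH-CH rats, with overlap of all groups. Against control, Nnmt had a log2 fold change of 0.16 for NASH rats (95% interval -0.22 to 0.55, adjusted p = 0.650). For NASH-CH rats it was 0.23 (-0.18 to 0.63, adjusted p = 0.443), and against NASH it was 0.061 (adjusted p = 0.919).

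Between NASH-CH and NASH rats, limma-voom called 0 of 8 members, where 4.20% of all genes were called, 1.81% higher and 2.39% lower. At an unadjusted p under 0.05 there were 2, Gnmt and Ahcy, and edgeR's quasi-likelihood test and DESeq2's Wald test also called 0. The comparisons of both models with control share the same 6 control rats, so their fold changes are not independent of each other.

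Ratios of counts within a rat do not depend on any scaling of libraries. The ratios to Mat1a of the 3 genes that fell were chosen after their values had been seen and are descriptions. Since these genes were called lower and Mat1a was not called, lower ratios followed from that choice. Gnmt had 75.1 to 153 counts per 1000 Mat1a counts in control rats (median 141), 54.4 to 128 (median 84.6) in NASH and 41.9 to 71.8 (median 51.5) in NASH-CH rats. All 6 NASH-CH rats were below every control rat, which was the case for 1.85% of other genes set against Mat1a in the same way. NASH-CH rat 5 was at 48.8, inside the range of its group, although its CPM of both genes was the lowest. Bhmt ran from 682 to 2431 counts per 1000 Mat1a counts in control (median 1708), from 750.1 to 1392 (median 998) in NASH and from 472 to 1045 (median 564) in NASH-CH rats, and NASH-CH rats 1 and 2 overlapped with control rats 2 and 6. Pemt ran from 42.5 to 86.6 (median 64.5) in control, from 28.8 to 54.1 (median 36.4) in NASH and from 27.5 to 44.1 (median 33.5) in NASH-CH rats, with overlap at control rat 6 only.

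The alternative route to phosphatidylcholine starts from choline, and Pcyt1a encodes the enzyme of its rate-limiting step. Pcyt1a ran from 23.3 to 37.7 CPM in control, from 23.7 to 36.1 in NASH and from 24.2 to 37.4 in NASH-CH rats, and its log2 fold change against control was -0.027 for NASH (adjusted p = 0.931) and 0.13 for NASH-CH rats (adjusted p = 0.542). Its reads were also shared with other genes in 18 of 18 rats. The ratio of Pemt to Pcyt1a counts ran from 3.23 to 5.33 (median 3.59) in control rats, from 1.70 to 4.02 (median 2.53) in NASH rats and from 1.91 to 2.33 (median 2.06) in NASH-CH rats. The NASH-CH rats formed a narrow range below every control rat, as 3.26% of genes did when set against Pcyt1a, and 4 of the 6 NASH rats were below every control rat.

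**Figure D3:**
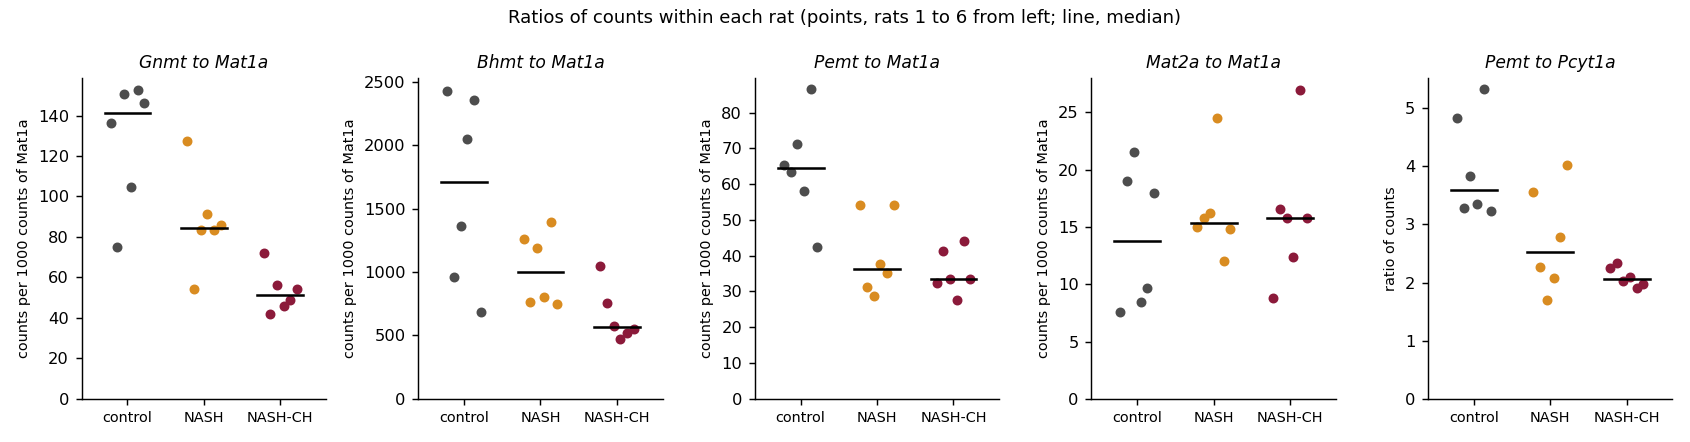
Ratios of counts within each rat (vertical axes, from 0), as counts per 1000 Mat1a counts or, at right, as the ratio of Pemt to Pcyt1a. Points are rats 1 to 6 from left to right and lines medians; the 6 NASH-CH rats lie below every control rat for Gnmt to Mat1a and for Pemt to Pcyt1a, and the groups overlap for Mat2a to Mat1a.

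Rats differed within a group in several members at once. NASH-CH rat 5 was the lowest of its group in 5 of 8 members (Mat1a, Gnmt, Ahcy, Bhmt and Pemt), and NASH-CH rat 1 the highest in 5. In the control group rat 2 was the lowest in 4 members (Gnmt, Cbs, Ahcy and Nnmt). Without NASH-CH rat 5, 2 of 8 members were called in NASH-CH, with Bhmt at a log2 fold change of -0.94 (adjusted p = 0.0644). The labels give no batch, date or litter to set beside these rats. Of its group, NASH-CH rat 5 also had the lowest Alb, Ttr, Apob and Fgb (41370, 2025, 8506 and 3061 CPM). Serpina1 was second lowest in it (5313 CPM). Pericentral Glul, Cyp2e1, Slc1a2, Oat, Rhbg and Lgr5 and periportal Cps1, Arg1, Hal and Pck1 were lowest in it too. Axin2 was the highest, and Ass1, Sds and Gls2 were neither. Its Apoa1 and Tf were the highest (1264 and 27040 CPM). So were the stellate cell genes Col1a1 and Dcn (34.4 and 23.6 CPM), while Lrat of that list was lowest (14.4 CPM). Epcam of cholangiocytes and Ptprc of lymphocytes were also highest (23.4 and 20.8 CPM). Its TMM factor, 1.282, was above that of every other rat. The part of cell makeup in these values was not tested.

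**Figure D4:**
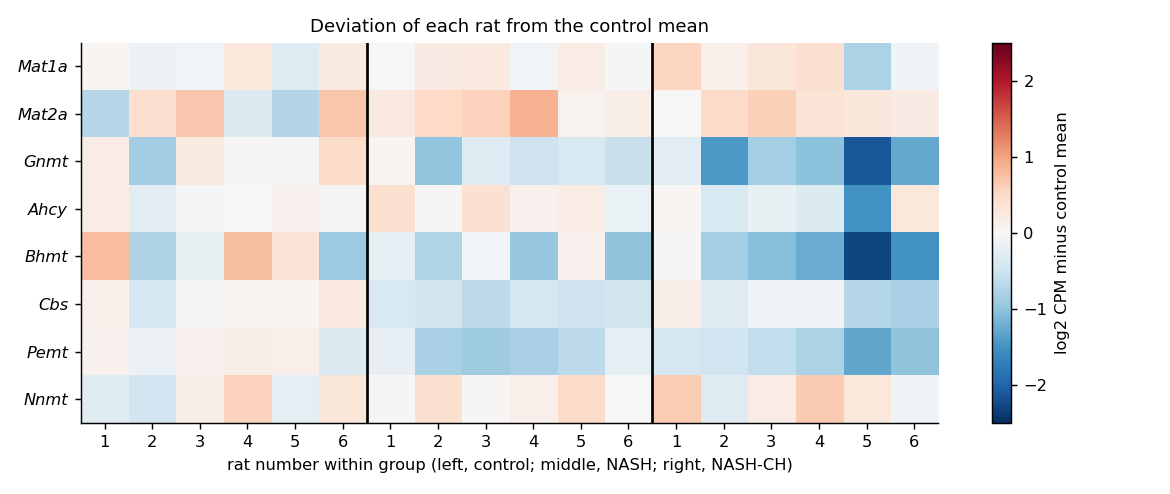
Log2 CPM of each member (rows) in each rat (columns, rats 1 to 6 of control, NASH and NASH-CH from left to right) minus the control mean, from blue (lower) to red (higher). NASH-CH rat 5 is low in Mat1a, Gnmt, Ahcy, Bhmt and Pemt, and Gnmt and Pemt are blue in most rats of both models.

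Summed markers of other cell types were set beside these values. Of all genes tested, 1.58% were called higher and 1.54% lower in NASH, and 8.38% higher and 8.60% lower in NASH-CH. The counts called in each list are to be read beside these shares. The 7 hepatocyte genes summed to 133000 to 191100 CPM (median 153200) in control, 95740 to 155300 (median 124500) in NASH and 88620 to 145000 (median 124600) in NASH-CH rats, with 1 of 7 called lower in NASH (Apoa1) and 3 in NASH-CH (Alb, Ttr and Apoa1). In such bulk samples fewer hepatocytes and less RNA per hepatocyte cannot be told apart. Mat1a, itself expressed in hepatocytes, was not called in NASH-CH against control (log2 fold change 0.09, interval -0.28 to 0.46). In the same comparison 5 of the 7 hepatocyte genes had values below 0, with Alb at -0.61, Ttr at -0.76 and Apoa1 at -0.66. Apob (0.36) and Tf (0.077) lay above 0 and were not called. Whether hepatocyte content differed was not tested by these values. The 8 stellate cell and myofibroblast genes summed to 278 to 371 CPM in control, 224 to 307 in NASH and 276 to 430.1 in NASH-CH rats, with 1 of 8 lower in NASH and 2 higher and 1 lower in NASH-CH. The 7 macrophage genes summed to 255 to 463 CPM in control, 180 to 264 in NASH and 152 to 233 in NASH-CH rats, with 1 of 7 lower in NASH and 5 in NASH-CH. The 5 cholangiocyte genes summed to 7.72 to 9.89 CPM in control, 6.02 to 11.8 in NASH and 5.90 to 39.4 in NASH-CH rats (0 of 3 tested were called against control in either model), and the 4 adipocyte genes to 2.03 to 4.59, 1.66 to 8.38 and 3.65 to 14.8 CPM (1 tested, called higher in NASH-CH). The 5 sinusoidal endothelial genes summed to 118 to 171, 153 to 188 and 108 to 191 CPM (1 of 5 called, higher, in NASH-CH), and the 6 lymphocyte genes to 14.4 to 26.1, 17.0 to 24.4 and 19.6 to 38.8 CPM (0 of 4 called). No marker of any list was at 0 in all rats. The 7 pericentral genes summed to 1013 to 2553 CPM in control, 1817 to 3307 in NASH and 1207 to 2608 in NASH-CH rats. Most of this was Cyp2e1, with means of 902, 2100 and 1626 CPM. By limma-voom 2 were higher in NASH, Cyp2e1 (log2 fold change 1.32, adjusted p = 0.0121) and Slc1a2 (2.25, adjusted p = 0.0269). In NASH-CH 1 was higher, Cyp2e1 (0.98, adjusted p = 0.0181), and 1 lower, Glul (-1.13, adjusted p = 0.000655). Of 7 periportal genes (6733 to 9566, 7770 to 9876 and 6847 to 10950 CPM) 0 were called in NASH and 1, higher, in NASH-CH. The part of cell makeup or zonation in the results was not tested.

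The genes around the cycle were taken as 8 lists of 97 symbols, of which 94 had a row and 90 were tested. In NASH 3 of 90 (3.33%) were called against 3.12% of all genes, 2 higher and 1 lower, and in NASH-CH 13 of 90 (14.4%) against 17.0%, 4 higher and 9 lower. The 13 include Mthfd1l and Srm, which had few counts. With library size only the split was 6 higher and 0 lower in NASH and 12 higher and 3 lower in NASH-CH, so the balance of directions rests on the scaling. The median log2 fold change of the 90 genes was -0.071 in NASH and -0.13 in NASH-CH. Both shares were near those of all genes. With library size only, Gss in NASH and Apip, Oaz1, Adi1, Ahcyl2, Chpt1 and As3mt in NASH-CH were not called. Relative to the median of all genes their values were close under both scalings, with Apip the farthest apart (-0.57 with TMM and -0.59 with library size only).

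Past cystathionine, cysteine is oxidised by Cdo1, and the product is decarboxylated by Csad on the way to taurine, which conjugates bile acids. Csad ran from 66.3 to 189 CPM (median 161) in control, from 68.2 to 149 (median 84.9) in NASH and from 24.8 to 78.4 (median 40.1) in NASH-CH rats. Of the NASH-CH rats 5 lay below every control rat, and 1 overlapped with control rat 6. In NASH-CH, Csad fell to 28.7% of control, or by -1.80 as log2 fold change (limma-voom, SE 0.27, adjusted p = 0.000175), which was the lowest adjusted p among the 90 genes. It was also lower in NASH-CH than in NASH rats, by -1.14 (SE 0.26, adjusted p = 0.0172), and in NASH against control its value was -0.66 (adjusted p = 0.163). Cdo1 ran from 808 to 1015 CPM in control, from 1046 to 1372 in NASH and from 314 to 1157 in NASH-CH rats. All 6 NASH rats were above every control rat, as in 1.77% of genes. Cdo1 was not called, with a log2 fold change of 0.36 for NASH (adjusted p = 0.351) and of -0.21 for NASH-CH rats (adjusted p = 0.547).

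Gss, glutathione synthetase, was the other called gene of the 10 tested in the list of cysteine, taurine, sulfide and glutathione genes. It ran from 21.2 to 34.7 CPM (median 28.9) in control, from 15.6 to 24.8 (median 18.6) in NASH and from 25.5 to 38.1 (median 26.8) in NASH-CH rats. It was lower in NASH than in control rats by -0.55 (SE 0.14, adjusted p = 0.0346) and higher in NASH-CH than in NASH rats by 0.53 (SE 0.14, adjusted p = 0.0342), with all 6 NASH-CH rats above every NASH rat, as in 1.36% of genes. Between NASH-CH and control rats its value was -0.016 (adjusted p = 0.949). The NASH call was lost in 8 of 18 leave-one-out fits (control rats 1 to 4 and NASH rats 1, 3, 5 and 6), where the adjusted p reached 0.0902, and that between the models in 6 (NASH rats 1, 3, 5 and 6 and NASH-CH rats 2 and 3), where it reached 0.0883. The medians of the list were -0.31 in NASH and -0.23 in NASH-CH.

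Next to Nnmt, Aox1 encodes the aldehyde oxidase that can oxidise methylated nicotinamide. It ran from 269 to 431 CPM (median 347) in control, from 410.3 to 591 (median 499) in NASH and from 513 to 711 (median 576) in NASH-CH rats. All 6 NASH-CH rats were above every control rat, as in 3.64% of genes, and so were 5 of 6 NASH rats. Aox1 rose by 0.55 in NASH (SE 0.12, adjusted p = 0.0235) and by 0.79 in NASH-CH (SE 0.13, adjusted p = 0.000424), the former lost without control rat 3, control rat 4 or NASH rat 3 (adjusted p up to 0.0696). The other 10 genes of nicotinamide and NAD metabolism were not called in either model.

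Polyamine synthesis spends SAM as well, and the methionine salvage pathway recovers its sulfur. In that list 0 of 13 genes were called in NASH, where 3.12% of all genes were. In NASH-CH 6 of 13 (46.2%) were called, 2 higher and 4 lower, where 17.0% of all genes were called, 8.38% higher and 8.60% lower. This was the highest share of the 8 lists, the others running from 0 to 14.3%. The 4 lower include Srm, which had 0 counts in all NASH-CH rats. The highest adjusted p by limma-voom were those of Adi1 (-0.36, adjusted p = 0.0461) and Paox (0.47, adjusted p = 0.0409). Their calls were lost in 13 and in 9 of 18 leave-one-out fits. Oaz1, the antizyme that restrains polyamine synthesis, fell in NASH-CH by 0.50 on the log2 scale (SE 0.10, adjusted p = 0.00312), from 46.5 to 59.5 CPM in control to 33.1 to 45.3 in NASH-CH rats, without overlap, as in 3.46% of genes. Apip of the salvage pathway had -0.56 (SE 0.15, adjusted p = 0.0172) and Mtap, its first enzyme, 0.30 (SE 0.090, adjusted p = 0.0318). The Mtap call was lost without control rat 2, 4 or 5 or NASH-CH rat 2 (adjusted p up to 0.0959). Srm, spermidine synthase, had 0 counts in 6 of 6 NASH-CH and 4 of 6 NASH rats and also in control rats 5 and 6, with 16 to 37 counts in the other 4 control rats. Its adjusted p was 0.0241, its reads were shared with other genes in the 6 rats where it had counts, and no fold is given.

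Of the 16 folate genes tested, Slc46a1, a folate transporter, was lower in NASH-CH by -0.89 (SE 0.25, adjusted p = 0.0216), and the call was lost without control rat 1 or 4 (adjusted p up to 0.0513). Mthfd1l, a mitochondrial enzyme of formate production, was higher by 2.06 (SE 0.54, adjusted p = 0.0144), from 0 to 0.502 CPM in control to 0.560 to 1.55 CPM in NASH-CH rats. Its counts were only 0 to 14 in control rats and 28 to 119 in the deeper NASH-CH libraries. The size of this fold is therefore uncertain, and its passing of the filter may rest on the NASH-CH rats. Pipox, which oxidises sarcosine, the product of Gnmt, and pipecolate, was the 1 called gene of 8 for betaine and sarcosine breakdown. It rose by 0.51 in NASH (SE 0.12, adjusted p = 0.0285) from 69.7 to 107 CPM in control to 95.03 to 146 in NASH rats, and was lost in 5 of 18 leave-one-out fits (control rats 3 and 4 and NASH rats 1, 3 and 5, adjusted p up to 0.0796). Chpt1, the last enzyme of the choline route, was the 1 called gene of 15 for phospholipid synthesis, at -0.41 in NASH-CH (SE 0.13, adjusted p = 0.0324), lost without control rat 3, 4 or 5 or NASH-CH rat 5 or 6 (adjusted p up to 0.0776). Among 7 other genes of the cycle Ahcyl2, a relative of Ahcy, had -0.42 in NASH-CH (SE 0.12, adjusted p = 0.0201), lost without control rat 4 (0.0567), and among 10 other methyltransferases As3mt had -0.36 (SE 0.12, adjusted p = 0.0441), lost in 10 of 18 leave-one-out fits (adjusted p up to 0.0887) with control rats 1, 3, 4 and 5, NASH rats 1 to 3 or NASH-CH rats 4 to 6 left out.

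**Figure D5:**
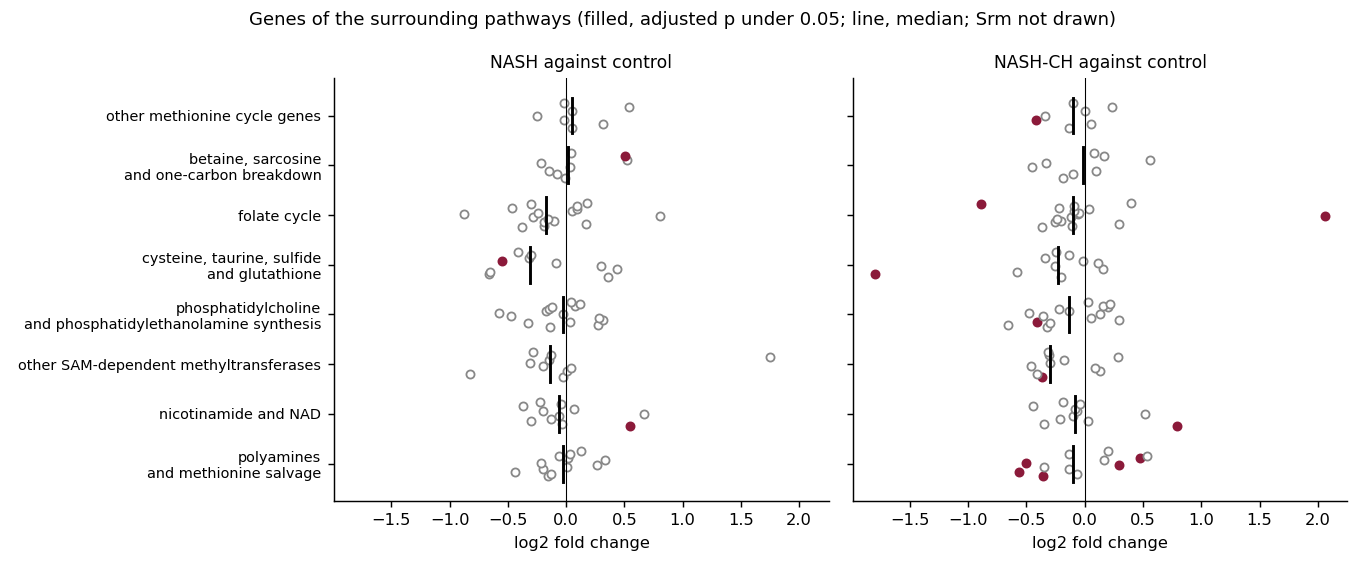
Log2 fold changes (horizontal axes) of 89 genes in 8 lists around the methionine cycle, in NASH and in NASH-CH against control. Points are genes, filled where the adjusted p was under 0.05, and vertical lines the medians of the points drawn in each list; the lowest point at right is Csad (-1.80) and the highest Mthfd1l (2.06, with 0 to 14 counts in control rats), and Srm, with 0 counts in all NASH-CH rats, is not drawn.

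The gene with the most similar pattern was found for each member by Pearson's r of log2 CPM over the 18 rats, among 5198 genes of at least 10 CPM on average. It is a description over 3 groups of 6 rats and has no p. Pemt was closest to Vkorc1 (r = 0.937, and 0.870 after removal of the group means), Bhmt to Bbox1 (0.914 and 0.891) and Gnmt to Oaz1 (0.910 and 0.795). Ahcy was closest to Glyat (0.896 and 0.893), Mat2a to Cacul1 (0.885 and 0.863), Mat1a to Prosc (0.880 and 0.890), Cbs to Rmnd1 (0.837 and 0.772) and Nnmt to Got1 (0.751 and 0.729).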

How the data were processed

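RNA-seq libraries came from the livers of 18 rats, 6 in each of the control, NASH and NASH-CH groups. The authors trimmed adapters, aligned reads to Rnor_6.0 by STAR, quantified genes by RSEM and deposited expected counts, not normalized for depth or gene length; tool versions are not given in the sources used here. Labels and methods name different RNA kits. Expected counts were rounded, scaled by TMM (edgeR 4.0.16) and tested with limma-voom (limma 3.58.1, R 4.3.3) in 1 fit of 18 rats with a mean per group, after filterByExpr, with Benjamini-Hochberg adjustment for each comparison. Log2 CPM used a prior count of 2. Depth was 19498534 to 60117822 counts, which gives counting error only. The labels do not say that rats were reared or processed apart, so p-values measure the spread between these rats. By the paper's methods rats were housed 2 per cage, and the fit, without a term for cage, treats cage mates as independent. Tests were tried on simulated data. DESeq2 1.42.0 and edgeR's quasi-likelihood test were alternatives.

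Members and lists were chosen with earlier results of these data known. Named pathway genes were those with an adjusted p under 0.05, at most 4 per list and comparison by smallest adjusted p. Adi1 and Paox were added as the remaining called genes of their list. Pcyt1a was named for its ratio to Pemt, and Cdo1 was chosen after its values were seen. The likeness rule took the gene with the highest r. Cth, Sqor, Abcb4 and Sirt1, and the markers Col1a2 and Pecam1, were not analysed here. No pair of rats of 1 group differed as little as counting error gives (smallest chi-square per degree of freedom 28.3). Coordinates are of GRCr8 promoter windows only; 8 of 9 members matched one by symbol.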

Additional observations from a re-analysis of the deposited data

Results flagged for a closer look

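In the ratio of Mat2a to Mat1a, NASH rat 4 had 24.5 Mat2a counts per 1000 Mat1a counts, far above the next highest NASH rat at 16.2. In Csad, control rat 6 was far below the other controls (66.3 CPM, the next at 146), and NASH-CH rat 2 far above the other NASH-CH rats (78.4 CPM, the next at 41.3). In Gss, NASH-CH rat 3 was far above its group (38.1 CPM, the next at 28.1). In Ahcyl2, NASH rat 1 was far above its group (7.62 CPM, the next at 5.92). In As3mt, NASH rat 6 was high (114 CPM, the next at 85.2) and NASH-CH rat 5 low (46.4 CPM, the next at 68.0). These 7 values came from 83 groups of 6 rats tested, and chance marks about 1 in 20 groups. The difference from control was itself different between the models in 2 genes, Csad (NASH-CH against NASH, log2 fold change -1.14) and Gss (0.53), by limma-voom at an adjusted p under 0.05. Among the 8 members no such difference passed.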

How the results depend on the processing

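In NASH against control 1 member was called, and 0 at an adjusted p under 0.01, with library size only, without a filter on low counts or with the replicate block, 2 (Pemt and Cbs) by DESeq2, with only the 2 groups fitted or with sample quality weights, and 0 to 2 when each rat was left out. In NASH-CH 3 members were called, and 2, without Bhmt, at an adjusted p under 0.01 and with 2 groups fitted, 3 in the other 10 alternatives, and 2 to 3 when each rat was left out. Between the models the count was 0 in all 12 alternatives and 0 to 1 when each rat was left out. Of pathway genes 3 were called in NASH, and 0 at an adjusted p under 0.01, 8 by DESeq2, 6 with library size only, 5 with 2 groups fitted and 10 with quality weights, and 0 to 12 when each rat was left out (0 without control rat 3 or 4 or NASH rat 3, 1 without NASH rat 1 or 5, 6 without NASH-CH rat 5, 12 without control rat 6). In NASH-CH 13 were called, 3 at an adjusted p under 0.01, 5 with 2 groups fitted, and 8 to 15 when each rat was left out (8 without control rat 4 or 5). Between the models 2 were called, 0 at an adjusted p under 0.01, 7 by DESeq2, 6 without the filter, 5 with quality weights, 4 with the replicate block, and 1 to 3 when each rat was left out (1 without NASH rat 3, 5 or 6 or NASH-CH rat 3). Mat1a between the models, near 0, changed sign with edgeR (0.039), DESeq2 (0.036), library size only (0.021), at least 10 counts in every sample (0.0013) and quality weights (0.14), and ran from -0.094 to 0.15 when each rat was left out, and Nnmt ran from -0.031 to 0.17. The cause was not tested.

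Over all genes 403, 2192 and 542 were called in the 3 comparisons in the order NASH, NASH-CH and between the models, with 39 to 1509, 849 to 5495 and 239 to 2649 across 12 alternatives and 128 to 982, 1519 to 2409 and 346 to 591 when each rat was left out. For NASH the count was 151 without control rat 1 or 4, 128 without control rat 3, 178 without control rat 5, 982 without control rat 6, 233, 131, 200 and 158 without NASH rats 1, 3, 4 and 5, and 721 without NASH-CH rat 5, and between the models it was 346 without NASH rat 3. The shares of all genes called move with these counts. Same-numbered rats had deviations from their group means that correlated at -0.12 to 0.17 (control and NASH), 0.027 to 0.12 (control and NASH-CH) and -0.074 to 0.080 (NASH and NASH-CH), so they share only a number. With the replicate block, Pemt in NASH had -0.61 (adjusted p = 0.0513), and 3 members were called in NASH-CH. NASH-CH counts thinned to the control depth left 1 and 3 members called. Counts were fewest for Mthfd1l (0 to 14 in control rats) and Srm (0 to 37).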
